A study of Mus musculus with 9 samples.

Results

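Calmodulin and the genes that act with it in calcium signalling were examined in dorsal hippocampus of mice in which Camta1, a calmodulin-binding transcription activator, had been knocked down. They are 37 genes, matched by symbol among the 31804 genes of the count table: calmodulins with the calmodulin-binding neuronal proteins neurogranin and GAP-43 (4), calmodulin-dependent (CaM) kinases (11), calcineurin (3), cyclases, phosphodiesterases and nitric oxide synthase (5), calcium stores (4), plasma membrane calcium pumps (4) and neuronal calcium sensors (6). The subfamilies were assigned by known function and not by the measured values.

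Male C57BL/6NCrl mice were given a recombinant adeno-associated virus by stereotaxic injection when 8 weeks old. All 9 received a virus with a short hairpin RNA (shRNA), which lowers the mRNA it matches. The control group had a hairpin without a target, and the other groups had shRNA sequence A or B against Camta1, named hairpin A and hairpin B here, with 3 mice in each group by the series' design. Tissue was collected 3 weeks after the injection, and the infected part was cut out by its mCherry fluorescence, so the controls carry virus, hairpin and marker as well. The labels do not name the promoter that drives the hairpins, and the dissected tissue can hold uninfected cells and several cell types.

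A rise of calcium in a neuron is sensed chiefly by calmodulin, which then binds and switches on kinases, the phosphatase calcineurin, adenylyl cyclases, phosphodiesterases and nitric oxide synthase. In the hippocampus these enzymes are best known for their part in synaptic plasticity, with CaM kinase II as an abundant protein of the postsynaptic density. Calcium enters the cytosol from stores through IP3 and ryanodine receptors and is expelled by pumps, while neurogranin and GAP-43 bind calmodulin at low calcium, and sensors such as hippocalcin respond beside it.

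Total counts lay between 29123744 and 38189288 per library. All 37 genes passed the filter on low counts, and all stood above 1 CPM, a read count relative to the TMM-scaled size of its library, in every library. Camta1 itself stood at 427, 455 and 442 CPM in the controls, at 230.5, 174 and 254 CPM with hairpin A and at 239, 145 and 266 CPM with hairpin B. The 6 knock-down libraries were all lower than the 3 controls, at log2 fold changes of -1.01 and -1.02, though edgeR did not call it (adjusted p = 0.388 with A, 0.0776 with B and 0.107 for the mean of both). A fall of this size was thus missed for Camta1, whose log2 fold change had a standard error (SE) of 0.216 with each hairpin. The median SE of the 37 genes was smaller, at 0.099 with each hairpin. A gene that was not called is still not shown to be unchanged. Of the marker lists, the summed level of 8 pan-neuronal genes was 5077 to 5823 CPM in controls, 4882 to 5046 with hairpin A and 4645 to 5124 with hairpin B, with 8 of 8 log2 fold changes negative for each hairpin and edgeR adjusted p of at least 0.702 and 0.236. A marker is called at 0 in this report only if no library held a read of it, and none of the 8 was. By the sums, of at least 4645 CPM, neuronal RNA was present in every library. The summed oligodendrocyte markers (6 of 6 positive for each hairpin, none at 0) ranged from 2886 to 4731 CPM in controls, 4077 to 6360 with hairpin A and 3262 to 6680 with hairpin B. The 6 microglia markers summed to 299 to 325 CPM in controls, 314 to 353 with hairpin A and 352 to 399 with hairpin B. With hairpin B 5 of these 6 were positive, 4 had an unadjusted p under 0.05, and C1qa rose (edgeR adjusted p = 0.0109). The 7 astrocyte markers summed to 3615 to 3959.8 CPM, 3634 to 4067 CPM and 3593 to 3868 CPM in the same order. Of these 7, 4 had an unadjusted p under 0.05 with hairpin B, 2 in each direction, and Aldh1l1 rose (edgeR adjusted p = 0.0137). The 5 markers of CA2 and CA3 pyramidal cells summed to 1222 to 1369.8 CPM in controls, and every knock-down library was lower, at 981 to 1039 CPM with hairpin A and 1029 to 1195 CPM with hairpin B, with 4 and 3 of 5 negative and 0 called. The 6 excitatory neuron markers summed to 2569 to 3171 CPM in controls, 2482 to 2812 with hairpin A and 2633 to 2786 with hairpin B, with 3 of 6 negative for each hairpin. The 4 CA1 markers summed to 337 to 484, 497 to 615 and 309 to 588 CPM, with 1 and 3 negative. The 5 dentate granule markers summed to 369 to 529, 382 to 412 and 284 to 480 CPM, with 4 negative for each hairpin. In these lists edgeR called 0. None of these markers was at 0. Control library 3 held most of the choroid plexus RNA, with the control sums from 23.5 to 1041 CPM. The part of these marker levels in the results was not tested. In tissue RNA, fewer cells of a type and less RNA per cell cannot be told apart. The series' design, and no other source, says that the libraries are separate animals.

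Promoters are shown first, for the element that proteins of the CAMTA family are known to bind through their CG-1 domain, CGCG. RefSeq promoter windows (GRCm38.p6, the 250 bases before a start) were found for 26 of the 37 genes. Matches to CGCG, which reads the same on both strands, with overlapping matches counted, occurred in 17 of the 26 (65.4%). The same search found it in 36.3% of the 27025 genes with a window and in 33.8% of all 32851 windows. The values over all genes in this paragraph were not limited to genes that passed the filter on low counts. All 37 members passed it, so the 2 sets of genes are unlike in this too. A gene was counted if any of its windows held a match, so a gene with several windows had more chances. The share over the members' windows was not taken, so the 33.8% has no counterpart here and 65.4% is not to be set against it. These windows are rich in G and C: the median of the highest GC content per gene was 67.4% in the members and 52.8% over all genes, and CGCG is itself made of G and C. TGACGTCA, the element of the calcium-regulated factor CREB (palindromic, with no overlap to CGCG), was found in 0 of the 26, against 1.77% of all genes and 1.55% of all windows. A match is a description of letters, not of binding. The 3 windows below show a window with no match (Nos1), a window with many (Pde1b) and a window of calmodulin itself (Calm3). They were chosen after the values were seen, since Nos1 and Pde1b both lay below every control with hairpin A, and capitals mark CGCG.
Nos1, chr5:117866589-117866838, plus strand: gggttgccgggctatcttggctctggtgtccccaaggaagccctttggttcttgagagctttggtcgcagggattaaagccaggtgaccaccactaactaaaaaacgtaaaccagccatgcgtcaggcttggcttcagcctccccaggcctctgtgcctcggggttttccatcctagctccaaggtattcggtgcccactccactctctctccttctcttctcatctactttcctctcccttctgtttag
Pde1b, chr15:103502784-103503033, plus strand: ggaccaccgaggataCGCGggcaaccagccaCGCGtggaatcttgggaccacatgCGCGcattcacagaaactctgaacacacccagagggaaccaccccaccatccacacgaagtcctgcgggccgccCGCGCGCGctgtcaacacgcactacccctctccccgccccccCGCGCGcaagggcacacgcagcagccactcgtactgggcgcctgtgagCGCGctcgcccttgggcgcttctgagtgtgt
Calm3, chr7:16924033-16924282, minus strand: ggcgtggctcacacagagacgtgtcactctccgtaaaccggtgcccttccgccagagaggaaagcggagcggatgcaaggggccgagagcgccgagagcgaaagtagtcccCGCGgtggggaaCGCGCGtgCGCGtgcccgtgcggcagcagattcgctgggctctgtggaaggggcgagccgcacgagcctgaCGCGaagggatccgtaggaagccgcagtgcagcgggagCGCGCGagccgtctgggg
The Nos1 window has 0 matches, that of Pde1b has 9 and that of Calm3 has 7. The Nos1 window is the only one searched for that gene. Its last bases are mostly C and T, then ag, like the end of an intron. The window may thus not be a promoter. Whether it covers the promoter in use in this tissue was not tested, so Nos1 is not shown to lack the element. Pde1b has 3 windows in the table, with 9, 0 and 0 matches, and the one with 9 is shown. The median log2 fold change of the 17 members with a match was -0.04 with hairpin A and -0.07 with hairpin B. That of the 9 members with no match in the windows searched, Nos1 among them, was -0.09 and -0.07. The 11 members with no window, among them Atp2b3, Adcy8 and Gap43, had medians of 0.04 and -0.13.

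The order of the genes in the control hippocampus spanned a wide range. Levels between genes are compared only as CPM per kb of exon, with exon lengths from GENCODE M21 (GRCm38), and are given as mean ± SD of 3 libraries. Neurogranin (Nrgn), a postsynaptic calmodulin-binding protein, was highest at 1306 ± 239.8 CPM per kb. It was followed by Camk2a, the alpha subunit of CaM kinase II, at 1087 ± 74.8, and by Hpca, hippocalcin, at 949.6 ± 222. The libraries of these 3 neighbours overlapped, so their order is not settled by these data. Calm2 at 699 ± 28.7 and Calm3 at 408 ± 42.0, which encode the same calmodulin protein, came next and were separate from their neighbours. At the other end were Adcy8, a calmodulin-stimulated adenylyl cyclase, at 3.03 ± 0.412 CPM per kb, and Camk2d, the delta subunit of CaM kinase II, at 1.38 ± 0.168. Of the 37 genes, 13 lay above 100 CPM per kb, 18 between 10 and 100 and 6 below 10, and in 12 of the 36 neighbouring pairs the 3 control libraries did not overlap.

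**Figure D1:**
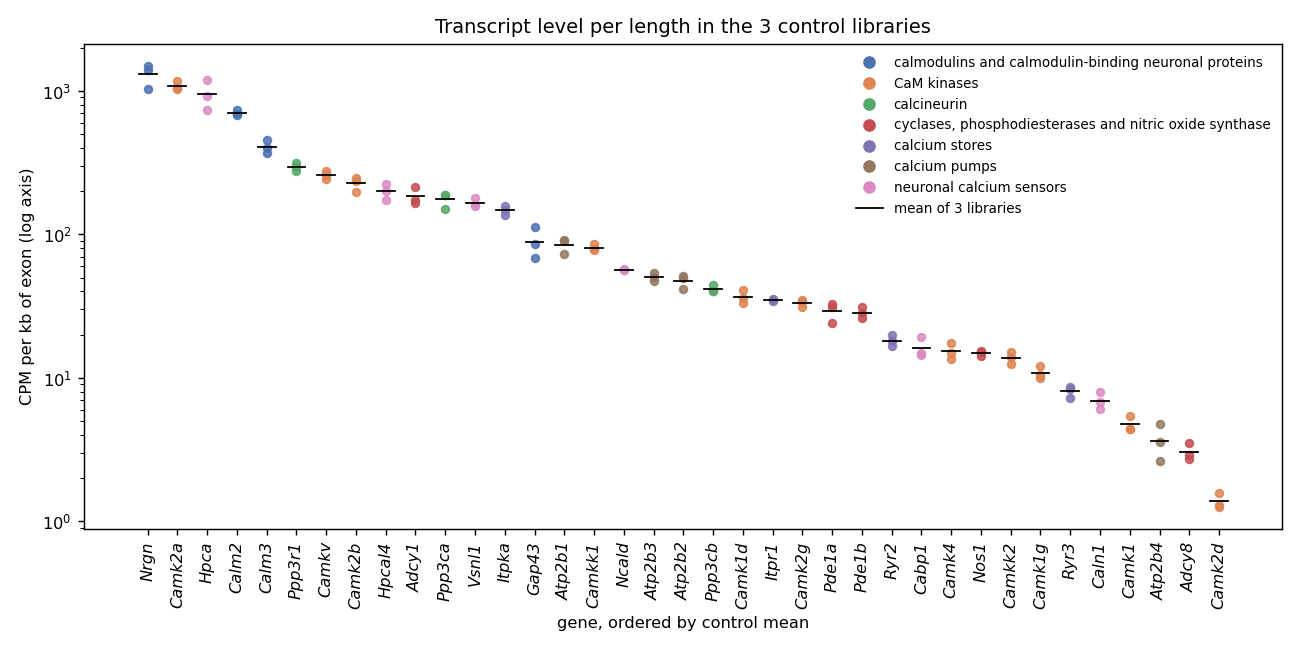
Level of each of the 37 genes in the 3 control libraries, in CPM per kb of exon on a log axis, ordered by the mean and coloured by subfamily. Nrgn, at 1306 CPM per kb, is 944 times as high as Camk2d at 1.38.

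In CaM kinase II and calcineurin the mean share of the leading gene differed between groups by less than the SD of the controls. Camk2a took 80.6% ± 1.59 of the CPM per kb of the 4 CaM kinase II genes in controls, 81.4% ± 0.454 with hairpin A and 81.3% ± 0.758 with hairpin B. Ppp3ca, the main catalytic subunit of calcineurin, took 78.9% ± 1.89, 80.5% ± 0.979 and 79.8% ± 1.41 of the catalytic subunits. Atp2b1 was the leading pump with 45.5% ± 1.70, 49.7% ± 2.96 and 47.2% ± 1.88. The share of Atp2b3 among the pumps was 28.3%, 25.96% and 27.1% in the controls, 23.2%, 22.6% and 23.6% with hairpin A and 23.4%, 22.8% and 22.2% with hairpin B. In this share the knock-down libraries did not reach the controls, and it is built on the same counts as the level of Atp2b3 given further on. No test was made of it. Camk1g, a CaM kinase I gene, took 11.2% to 14.1% of the CaM kinase I genes in the controls and 16.4% to 17.6% with hairpin A, without overlap, and 10.2% to 18.04% with hairpin B.

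**Figure D2:**
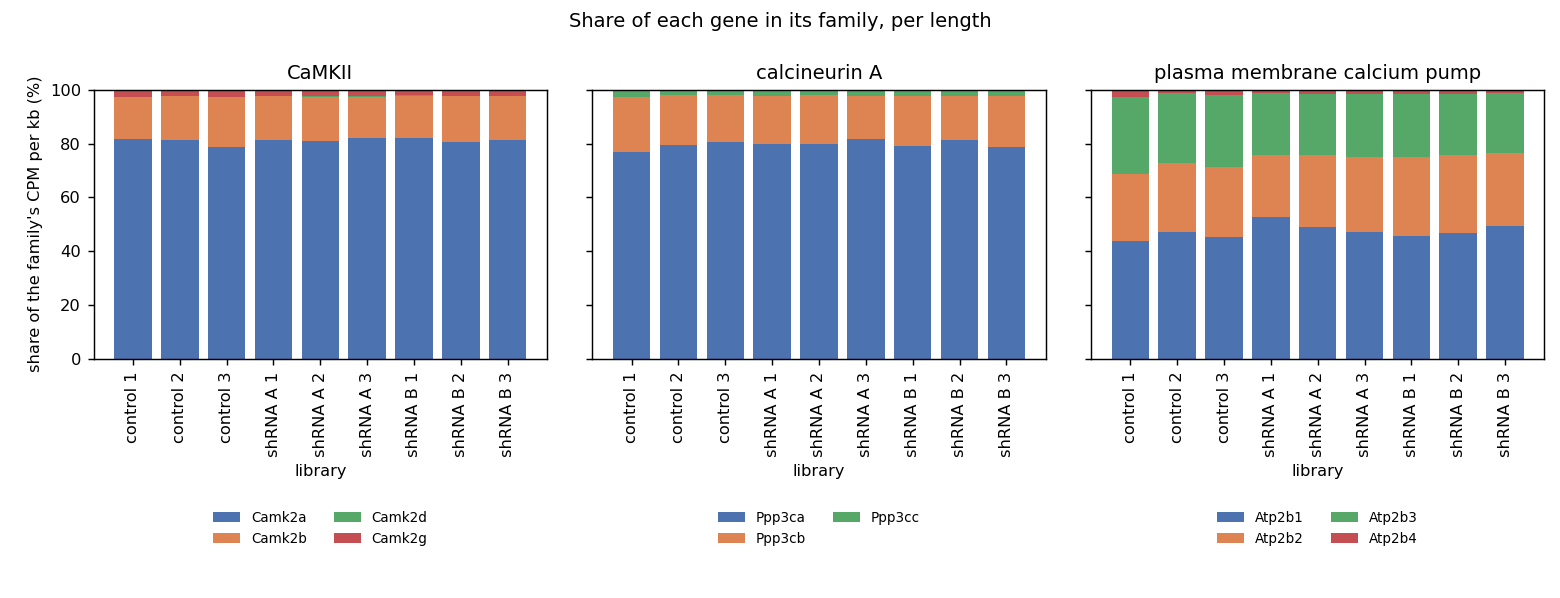
Share of each gene in the CPM per kb of its family, in percent, in each of the 9 libraries, for CaM kinase II, the catalytic subunits of calcineurin and the plasma membrane calcium pumps. The bars differ little between libraries except in the pumps, where Atp2b3 takes 25.96% to 28.3% in controls and 22.2% to 23.6% in the knock-down libraries.

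In the comparison of each hairpin with control, the question was which of these genes depend on Camta1. With hairpin A, 0 of the 37 genes passed edgeR's test at an adjusted p of 0.05, where 0.0243% of all 16438 genes tested did, and 4 had an unadjusted p under 0.05 (6.9% of all genes). DESeq2 called 1 of the 37, Nos1 (0.201% of all genes), and limma-voom 0 (0%). The log2 fold change was negative for 23 of 37 with a median of -0.04, against 49.9% and a median of 0.00 over all genes tested. With hairpin B, 1 gene fell, Atp2b3 (1.02% of all genes called, 0.237% called lower), and no other was called, while 8 had an unadjusted p under 0.05 (12.8% of all genes). DESeq2 called 5 of the 37 (2.19% of all genes) and limma-voom 1 (0.578%). Here 30 of 37 log2 fold changes were negative with a median of -0.09, against 49.7% and a median of 0.00 over all genes. The 8 pan-neuronal markers, all negative, had medians of -0.09 with hairpin A and -0.13 with hairpin B. The 6 excitatory neuron markers had medians of -0.01 and 0.00. A lean downwards is thus not particular to the 37 genes, and its source was not tested. The 2 comparisons share the control libraries, so that a control library with high values pulls both in the same direction. For the mean of both hairpins 0 of 37 were called (0.0973% of all genes), 6 had an unadjusted p under 0.05 (10.4%), and 25 of 37 were negative with a median of -0.07. Over all genes 49.5% were negative. DESeq2 called 3 in that comparison (1.33% of all genes) and limma-voom 0 (0.0791%).

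Sizes were small throughout. The log2 fold changes ran from -0.50 to 0.26 with hairpin A and from -0.60 to 0.14 with hairpin B. The largest difference between any 2 of the 9 libraries was 2.17-fold, for Gap43, and the smallest range was 1.13-fold, for Camk2a, with a median over the genes of 1.38-fold. In the controls the coefficient of variation had a median of 10.5%, from 0.873% for Ncald to 29.3% for Atp2b4. Control library 2 had the highest value of the 9 for 11 genes, and hairpin B library 1 had the lowest for 10. With 3 against 3 libraries, all 3 lay below all 3 controls for 5 genes with hairpin A (Camkk1, Pde1b, Nos1, Atp2b3 and Ncald) and for 7 with hairpin B (Camk2g, Ppp3cb, Atp2b3, Atp2b4, Calm2, Adcy8 and Nos1). Over all genes tested such separation downwards was seen in 5.65% and 8.88%, respectively. None of the 37 lay above all controls with either hairpin (6.84% and 9.27% of all genes). All 6 knock-down libraries were below the controls for Nos1 and Atp2b3 alone among the 37 (2% of all genes).

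**Figure D3:**
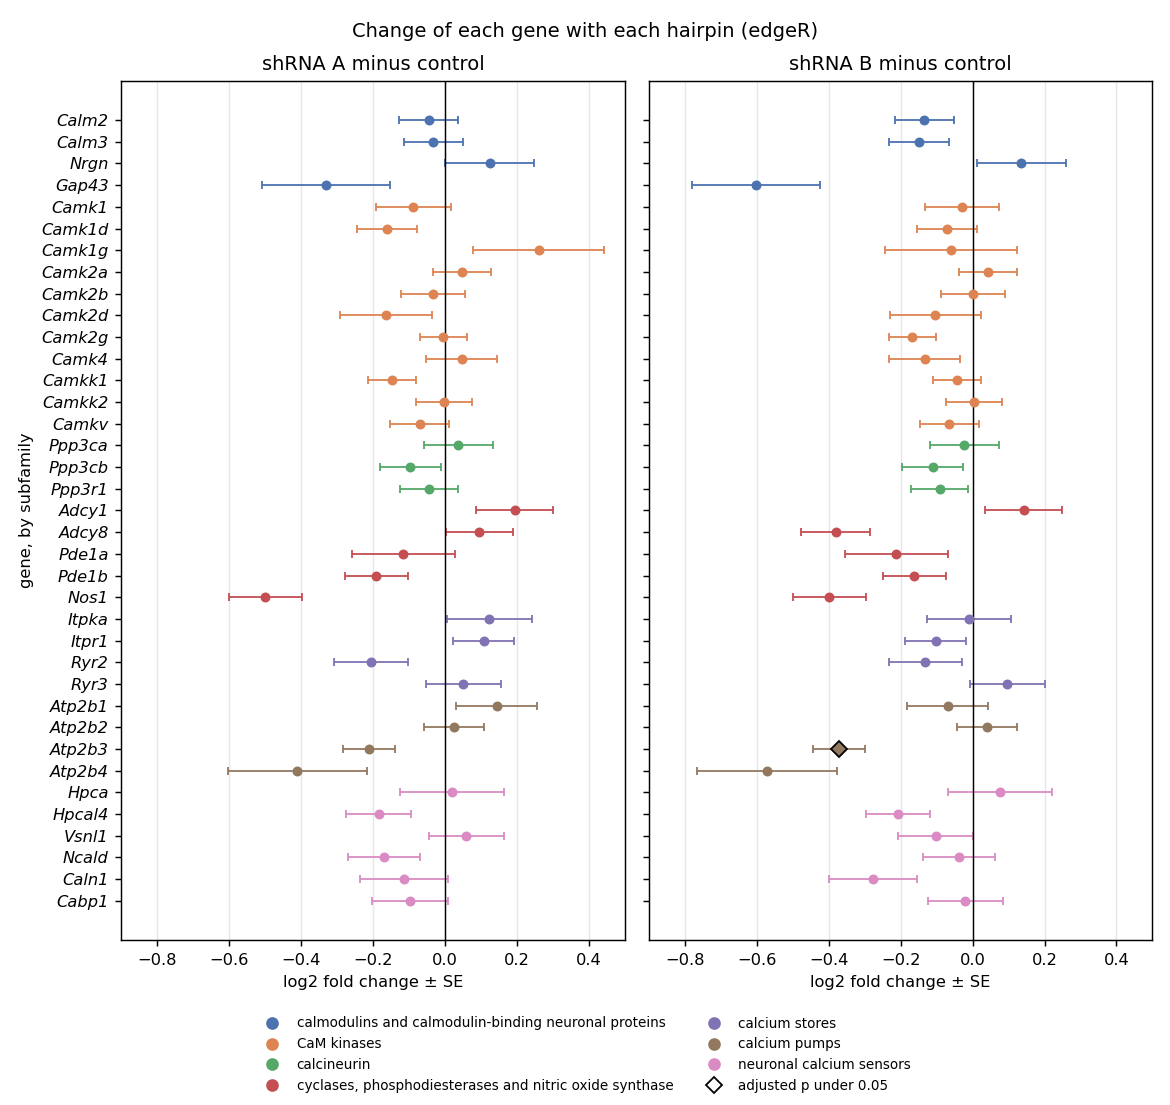
Log2 fold change against control for each gene, with bars of 1 SE to each side, with hairpin A and hairpin B in separate panels, coloured by subfamily. Diamonds with a black edge mark an edgeR adjusted p under 0.05. The only such gene is Atp2b3 with hairpin B, at -0.37, and no gene is further from 0 than -0.60.

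Among the calcium pumps, which expel calcium through the plasma membrane, Atp2b3 (ENSMUSG00000031376, chromosome X) encodes the neuronal pump PMCA3. It stood at 226, 244 and 259 CPM in the controls, at 225, 202 and 203 CPM with hairpin A and at 181, 192 and 191 CPM with hairpin B. Every hairpin B library was below every hairpin A library, and these were below every control, though hairpin A library 1 was just below control library 1. With hairpin B the level was 77.3% ± 2.62 of the control mean, a log2 fold change of -0.37 ± 0.072 (SE, edgeR adjusted p = 0.0361). With hairpin A it was 86.3% ± 5.49 of the control mean, -0.21 ± 0.072 (edgeR adjusted p = 0.625), and for the mean of both hairpins -0.29 ± 0.062 (edgeR adjusted p = 0.11). DESeq2 called Atp2b3 for the mean of both (adjusted p = 0.00269, range 0.00269 to 0.25 over the alternatives). Over all 17 alternative analyses the adjusted p with hairpin B ran from 0.000222 to 0.119. The call with hairpin B did not hold in 9 of them. It was lost without each control library (0.0745, 0.119 and 0.103), without hairpin A library 2 (0.0593) and without each hairpin B library (0.0819, 0.0918 and 0.0616), at a log2 fold change from -0.42 to -0.33. In the authors' deposited table Atp2b3 has log2 fold changes of -0.21 and -0.37 and an adjusted p of 0.000867 in a test across all 3 groups.

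Atp2b4 (ENSMUSG00000026463, chromosome 1), which encodes the pump PMCA4, was at 58.3, 32.1 and 43.9 CPM in the controls, at 28.0, 37.6 and 35.3 with hairpin A and at 30.4, 31.3 and 28.5 with hairpin B. The controls were spread widely, and control library 2 was only just above the hairpin B libraries. The log2 fold change was -0.57 ± 0.195 (SE) with hairpin B (edgeR adjusted p = 0.268), and -0.41 ± 0.19 with hairpin A (adjusted p = 0.741). Without control library 1 these were -0.34 and -0.18. DESeq2 called it with hairpin B (adjusted p = 0.0367, with a range over the alternatives of 0.0367 to 0.521). Atp2b1, which encodes the most abundant pump, PMCA1, was at 1104, 1399.7 and 1371 CPM, at 1618, 1385 and 1276 CPM and at 1113, 1242 and 1338 CPM in control, hairpin A and hairpin B. The groups overlapped, with log2 fold changes of 0.14 ± 0.11 and -0.07 ± 0.11. Atp2b2, for the pump PMCA2, was level at 598 ± 65.3, 608 ± 26.8 and 615 ± 21.5 CPM.

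Among the enzymes that make or break down second messengers, Nos1 (ENSMUSG00000029361, chromosome 5) encodes the neuronal nitric oxide synthase, which calmodulin activates. It stood at 172, 169 and 157 CPM in the controls, at 118, 124 and 109.9 CPM with hairpin A and at 112, 150.3 and 116 CPM with hairpin B. All 6 knock-down libraries were below the controls, and hairpin B library 2 was the closest to them. The level was 70.7% ± 4.29 of the control mean with hairpin A and 75.9% ± 12.7 with hairpin B. The log2 fold change was -0.50 ± 0.10 (SE) with hairpin A (edgeR adjusted p = 0.291), -0.40 ± 0.10 with hairpin B (0.105) and -0.45 ± 0.087 for the mean of both (0.0902), so it did not pass the threshold. DESeq2 called Nos1 in all 3 comparisons, with adjusted p of 0.00527, 0.0141 and 0.000566, and without hairpin B library 2 edgeR did too, with 0.0237, 0.0142 and 0.00539. Over all alternatives the adjusted p ran from 0.00527 to 0.777, from 0.0141 to 0.297 and from 0.000566 to 0.392. In the authors' deposited table Nos1 has log2 fold changes of -0.50 and -0.40 and an adjusted p of 0.000574 in the test across all 3 groups.

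Nos1 is known mainly from interneurons in the hippocampus. The summed level of 10 interneuron markers (none at 0) was 715 to 735 CPM in controls, 740.1 to 800.2 with hairpin A and 578 to 719 with hairpin B. Of these markers 4 were negative with hairpin A and 7 with hairpin B, with edgeR adjusted p of at least 0.728 and 0.395. The sums with hairpin A were above every control, and those with hairpin B reached below the controls and overlapped them. Nos1 was below every control with each hairpin. The part of interneurons in the level of Nos1 was not tested. Exons of Nos1 overlap 268 bases of an antisense gene, Gm26995, whose reads could not be told apart in these libraries, which carry no strand.

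Adcy8 (ENSMUSG00000022376, chromosome 15), a calmodulin-stimulated adenylyl cyclase, stood at 23.5, 28.5 and 22.1 CPM in the controls, at 27.4, 24.5 and 27.2 CPM with hairpin A and at 18.1, 19.3 and 19.5 CPM with hairpin B. The hairpin B libraries lay below all others, and those of hairpin A were within or near the range of the controls. The log2 fold change was -0.38 ± 0.095 (SE) with hairpin B (edgeR adjusted p = 0.0935) and 0.10 ± 0.094 with hairpin A (0.863). The direct comparison of the hairpins, hairpin B minus hairpin A, gave -0.48 ± 0.095 (edgeR adjusted p = 0.148), also short of the threshold. DESeq2 called Adcy8 with hairpin B (adjusted p = 0.032) and between the hairpins (0.00566), within ranges over the alternatives of 0.032 to 0.253 and 0.00566 to 0.41. The authors' deposited table gives it an adjusted p of 0.00356 in the test across all 3 groups, not for 1 hairpin.

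Adcy1, the more abundant cyclase of this kind, was at 2061, 2180.3 and 2688 CPM in controls, at 2709.6, 2623 and 2593 with hairpin A and at 2831, 2563 and 2252 with hairpin B. Control libraries 1 and 2 were the lowest of the 9, and control library 3 was among the knock-down values. The log2 fold changes were 0.19 ± 0.11 and 0.14 ± 0.11, not past the threshold. Pde1b, a calmodulin-dependent phosphodiesterase, was at 152, 140.2 and 167 CPM, at 131, 135 and 136 CPM and at 145, 146 and 119 CPM in control, hairpin A and hairpin B. Its hairpin A libraries were close together and below all controls, with a log2 fold change of -0.19 ± 0.087 (edgeR adjusted p = 0.722), against -0.16 ± 0.087 with hairpin B (0.473). Pde1a, a related phosphodiesterase, had 176 ± 27.6, 162 ± 26.7 and 152 ± 19.1 CPM, with overlapping groups.

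**Figure D4:**
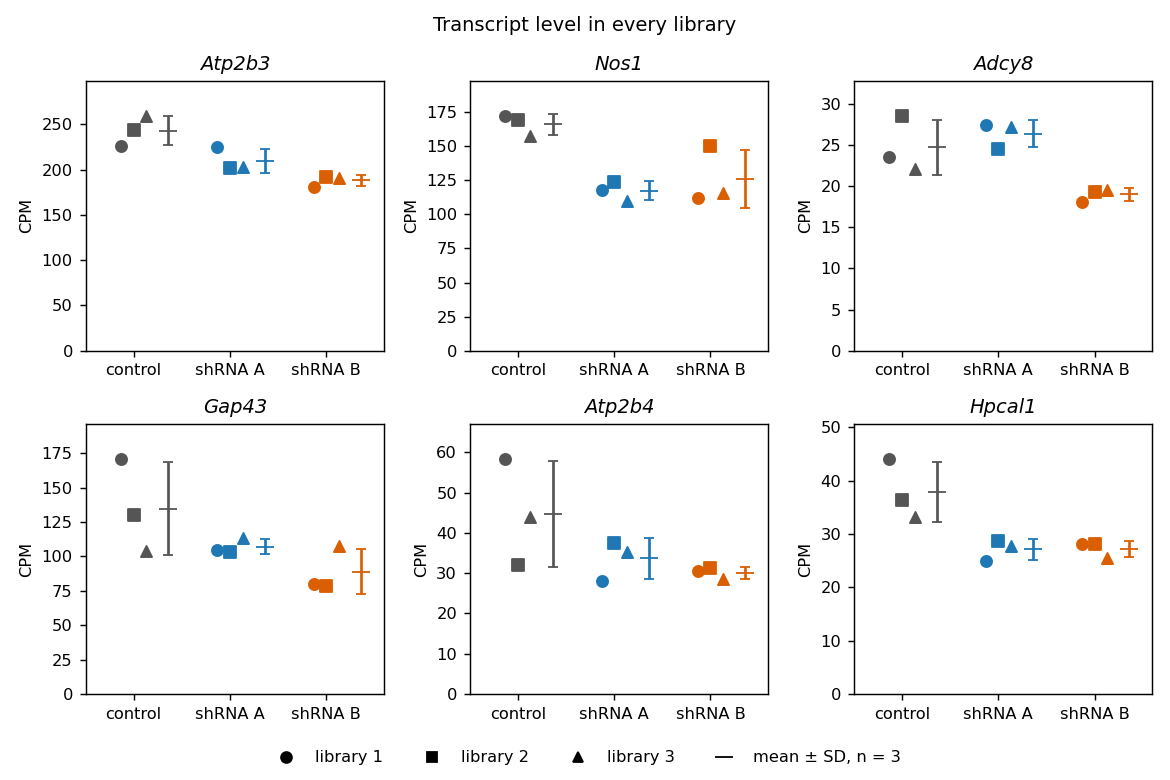
Level in CPM in each library, by group, for Atp2b3, Nos1, Adcy8, Gap43, Atp2b4 and the related sensor gene Hpcal1, with the mean and SD of 3 libraries beside the points. For Nos1 the 6 knock-down libraries lie between 109.9 and 150.3 CPM and the controls between 157 and 172 CPM, while Gap43 and Atp2b4 have widely spread controls.

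Of the calmodulins, Calm2 was at 1026 ± 42.1 CPM in controls, 994 ± 94.5 with hairpin A and 935 ± 54.0 with hairpin B. Its hairpin B libraries were all below the controls, but the nearest 2 were 996 and 998 CPM. Calm3 was at 987 ± 102, 965 ± 34.6 and 890.0 ± 51.6 CPM, with overlapping groups. The log2 fold changes with hairpin B were -0.13 ± 0.082 and -0.15 ± 0.083 (edgeR adjusted p 0.543 and 0.492). Reads shared with processed copies of the calmodulin genes could have been split or lost in the authors' counting, so these levels are uncertain.

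Of the calmodulin-binding proteins, Nrgn was at 1503, 2163 and 2027 CPM in the controls, at 1903, 2057 and 2241 CPM with hairpin A and at 1903, 2202 and 2150.3 CPM with hairpin B. Control library 1 was the lowest of all. The log2 fold changes were 0.12 ± 0.12 and 0.14 ± 0.12, and without control library 1 they were -0.02 and -0.01, so no direction is given. Gap43 (ENSMUSG00000047261, chromosome 16), a protein of growing axon endings that binds calmodulin, was at 171, 130.4 and 104 CPM in the controls. It was at 105, 103 and 113 CPM with hairpin A and at 80.2, 78.6 and 108 CPM with hairpin B. Control library 3 lay among the knock-down values, and hairpin B library 3 was above that control. The log2 fold change was -0.60 ± 0.18 (SE) with hairpin B (edgeR adjusted p = 0.198) and -0.33 ± 0.18 with hairpin A (0.751), and without control library 1 these were -0.40 and -0.13. DESeq2 called Gap43 with hairpin B (adjusted p = 0.00981, range 0.00981 to 0.477 over the alternatives) and for the mean of both (0.0462, range 0.0462 to 0.767). The authors' deposited table gives an adjusted p of 0.0293 in the test across all 3 groups. Atp2b3, Nos1, Adcy8 and Gap43 were the 4 of 37 genes with an adjusted p under 0.05 in the authors' deposited table, against 379 of 15093 genes in it (2.51%).

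None of the 11 CaM kinase genes was called by edgeR with either hairpin, and 1 had an unadjusted p under 0.05 in each comparison, Camkk1 with hairpin A and Camk2g with hairpin B. DESeq2 and limma-voom called 0 of them there too. Camk2a, for the main subunit of the kinase, was at 7733, 8758 and 7863 CPM in controls, at 8556, 7859 and 8728 CPM with hairpin A and at 8533, 8334 and 8230.2 CPM with hairpin B. It varied least of the 37, and its log2 fold changes of 0.05 and 0.04, with SE of 0.080, have 95% intervals of -0.13 to 0.22 with each hairpin. Camk2g, for the gamma subunit, was at 216, 200.5 and 222 CPM in controls, at 208, 205 and 223 CPM with hairpin A and at 185, 194 and 190.1 CPM with hairpin B. The hairpin B libraries lay just below all 6 others, with a log2 fold change of -0.17 ± 0.065 (edgeR adjusted p = 0.302), while with hairpin A it was 0.00 ± 0.065. Camk2b, for the beta subunit, stood at 2069.5 ± 243, 2020.1 ± 80.9 and 2069.5 ± 94.0 CPM, and Camk2d at 31.1 ± 3.77, 27.7 ± 5.14 and 28.95 ± 1.43 CPM.

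Camkk1, a kinase that activates CaM kinases I and IV, was at 291, 293 and 318 CPM in controls, at 269, 269.9 and 275 CPM with hairpin A and at 299.8, 302 and 273 CPM with hairpin B. The hairpin A libraries lay close together and below the controls, with a log2 fold change of -0.15 ± 0.066 (edgeR adjusted p = 0.72), against -0.04 ± 0.066 with hairpin B. Camkk2, its relative, was level at 151 ± 13.5, 151 ± 9.35 and 152 ± 7.25 CPM. Camk4, the nuclear CaM kinase IV, was at 49.8 ± 6.59, 51.5 ± 4.03 and 45.4 ± 3.88 CPM. Of the CaM kinase I genes, Camk1 stood at 28.3 ± 3.39, 26.6 ± 3.56 and 27.7 ± 0.813 CPM, Camk1d at 274 ± 29.4, 245 ± 8.54 and 260.3 ± 17.4 CPM, and Camk1g at 30.0 ± 3.16, 35.97 ± 2.48 and 28.9 ± 8.82 CPM. For Camk1g with hairpin B, library 3 was at 38.9 CPM and the others at 22.2 and 25.6 CPM. Without that library edgeR called Camk1g lower with hairpin B than with hairpin A, in a comparison that then called 110 of 16598 genes (0.663%), against 0 with all libraries. Camkv, a kinase-like synaptic protein without kinase activity, was at 976 ± 56.6, 929.9 ± 66.7 and 933 ± 70.3 CPM. Exons of Camk1 overlap 232 bases of Ogg1 on the other strand, and reads there could not be told apart.

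The 3 calcineurin genes had an adjusted p of at least 0.653 in edgeR with either hairpin, 0 of them had an unadjusted p under 0.05, and DESeq2 and limma-voom called 0. Ppp3r1, for the regulatory subunit, was at 886, 1009 and 946 CPM in controls, at 995, 905 and 854 CPM with hairpin A and at 869.7, 856 and 941 CPM with hairpin B. The groups overlapped, and its exons share 462 bases with Wdr92 on the same strand. Ppp3ca was at 1756 ± 220.0, 1802 ± 95.4 and 1729 ± 113 CPM. Ppp3cb, for the other main catalytic subunit, was at 367 ± 18.9, 343 ± 40.4 and 339 ± 13.3 CPM, with log2 fold changes of -0.10 ± 0.085 and -0.11 ± 0.085.

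Among the genes of the calcium stores, edgeR, DESeq2 and limma-voom called 0 of 4 with either hairpin, and 0 had an unadjusted p under 0.05 in edgeR. Itpr1, the main neuronal IP3 receptor, was at 630.5, 648 and 636 CPM in the controls, at 745, 640.3 and 677 CPM with hairpin A and at 551, 564 and 668 CPM with hairpin B. The hairpins stood on opposite sides of tightly grouped controls, with overlap, at log2 fold changes of 0.11 ± 0.085 and -0.10 ± 0.085. The difference between them was -0.21 ± 0.085 (edgeR adjusted p = 0.47). Ryr2, the main ryanodine receptor of the brain, was at 482, 518 and 569 CPM, at 491, 461 and 409 CPM and at 494, 528 and 411 CPM in control, hairpin A and hairpin B. Both knock-down groups reached below the controls and overlapped them, with log2 fold changes of -0.21 ± 0.10 (edgeR adjusted p = 0.741) and -0.13 ± 0.10 (0.66). Itpka, the kinase that removes IP3, was at 249.6, 285 and 267 CPM, at 300.3, 256 and 317 CPM and at 220.3, 267 and 309 CPM, also with overlap. Ryr3, another ryanodine receptor, was at 153 ± 13.6, 159 ± 19.5 and 164 ± 16.2 CPM, and 916 bases of its exons overlap Aven on the other strand.

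Of the neuronal calcium sensors, 0 of 6 were called by edgeR, DESeq2 or limma-voom with either hairpin. By edgeR 2 had an unadjusted p under 0.05 with hairpin B, Hpcal4 and Caln1, and 0 with hairpin A. Hpcal4, a relative of hippocalcin, was at 1205, 1062 and 931 CPM in controls, at 982, 887 and 943 CPM with hairpin A and at 947, 908 and 913 CPM with hairpin B. Control libraries 1 and 2 were the highest of the 9, and control library 3 lay among the knock-down values. The log2 fold changes were -0.19 ± 0.089 (edgeR adjusted p = 0.741) and -0.21 ± 0.089 (0.355), and -0.09 and -0.11 without control library 1. Caln1, calneuron 1, was at 82.9, 71.6 and 63.5 CPM, at 69.2, 58.3 and 73.8 CPM and at 52.2, 59.7 and 68.0 CPM, with log2 fold changes of -0.11 ± 0.12 and -0.28 ± 0.12 (edgeR adjusted p = 0.377 for the second) and overlapping groups. Hpca itself was at 2163, 3457 and 2705 CPM in controls, at 3051, 2727 and 2659.7 CPM with hairpin A and at 2777, 2758 and 3246 CPM with hairpin B. The controls held both its lowest and its highest library. Ncald, neurocalcin delta, stood at 486 ± 4.24 CPM in controls and at 432 ± 22.5 CPM with hairpin A, without overlap, and at 473 ± 78.1 CPM with hairpin B. Vsnl1, visinin-like 1, was at 323 ± 23.2, 336 ± 6.21 and 300.5 ± 51.1 CPM, and Cabp1, a calmodulin-like calcium-binding protein, at 94.4 ± 14.8, 88.3 ± 8.77 and 93.1 ± 4.99 CPM.

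Between the hairpins, hairpin B minus hairpin A, edgeR called 0 of the 37 genes (0% of all genes tested). An unadjusted p under 0.05 was found for 4 (9.34% of all genes): Camk2g, Adcy8, Itpr1 and Atp2b3, each with the lower value in hairpin B. DESeq2 called 1, Adcy8 (0.691% of all genes), and limma-voom 0 (0%). The median log2 difference was -0.02, and 21 of 37 were negative, against 49.5% of all genes. Camk2g, Atp2b3 and Adcy8 had no overlap between the hairpins, lower with hairpin B in each case (6.95% of all genes), and 0 were higher without overlap (7.29%).

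By subfamily, the median log2 fold change with hairpin A was -0.04 for the calmodulins and calmodulin-binding proteins, -0.03 for the CaM kinases, -0.04 for calcineurin, -0.12 for the cyclases, phosphodiesterases and nitric oxide synthase, 0.08 for the stores, -0.09 for the pumps and -0.11 for the sensors. With hairpin B these medians were -0.14, -0.06, -0.09, -0.21, -0.06, -0.22 and -0.07 in the same order. The pumps and the second-messenger enzymes were thus lowest with hairpin B, by medians of 4 and 5 genes. In the mean log2 level of a subfamily per library, the hairpin B libraries were below all controls for the pumps and for the second-messenger enzymes. For the pumps the controls were at -0.02, -0.06 and 0.08 relative to their mean, hairpin A at -0.11, -0.08 and -0.12, and hairpin B at -0.28, -0.19 and -0.21. With hairpin A they were below the controls as well, by less. For the other 5 subfamilies, the groups overlapped. These means give each gene equal weight. In summed CPM the hairpin B libraries overlapped the controls for the pumps and for the second-messenger enzymes. The pumps summed to 1911 to 2317 CPM in controls and 1920 to 2168 CPM with hairpin B. The enzymes summed to 2605 to 3179 CPM in controls and 2679 to 3242 CPM with hairpin B. No test was made of these means or sums.

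**Figure D5:**
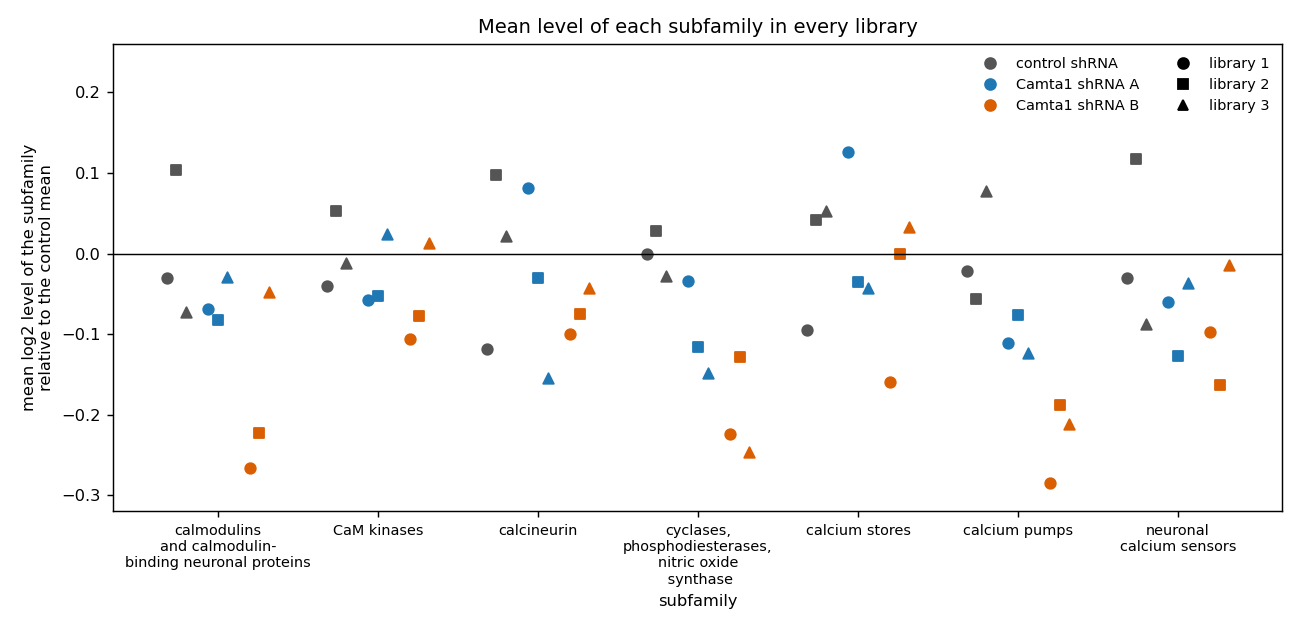
Mean log2 level of the genes of each subfamily in each library, relative to the mean of the 3 controls, with colour for the group and shape for the library number. In the pumps the hairpin B libraries lie from -0.28 to -0.19, below controls at -0.06 to 0.08, and in most other subfamilies the groups overlap.

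Other genes of the pathway, listed by function, numbered 48, of which 46 were tested. With hairpin A the lowest adjusted p in edgeR was 0.309, where 0.0243% of all genes tested were called. An unadjusted p under 0.05 was found for 3 (6.52%, against 6.9% of all genes). The log2 fold change was negative for 20 of 46, with a median of 0.01. With hairpin B 1 fell and no other was called, where 1.02% of all genes were called and 0.237% called lower. Here 3 had an unadjusted p under 0.05 (6.52%, against 12.8% of all genes), and 23 of 46 were negative, with a median of 0.00. The gene that fell was Hpcal1 (ENSMUSG00000071379, chromosome 12), a sensor of the hippocalcin family, at 44.0, 36.4 and 33.1 CPM in the controls, at 24.9, 28.7 and 27.8 CPM with hairpin A and at 28.0, 28.1 and 25.5 CPM with hairpin B. The knock-down libraries all stayed under the controls. The log2 fold change was -0.47 ± 0.10 (SE) with hairpin B (edgeR adjusted p = 0.0463) and -0.48 ± 0.10 with hairpin A (adjusted p = 0.309). The call with hairpin B was lost in 14 of 17 alternatives, among them those without each of the 9 libraries. Over all 17 the adjusted p ran from 0.00253 to 0.173. DESeq2 also called Hpcal1 with hairpin A (adjusted p = 0.0175, range 0.0175 to 0.777). Calb2, calretinin, a calcium buffer, was at 34.9, 8.47 and 12.3 CPM in controls, at 6.13, 7.75 and 8.80 CPM with hairpin A and at 7.83, 5.28 and 5.66 CPM with hairpin B. Control library 1 was far above all others, and the log2 fold changes of -1.29 ± 0.52 and -1.56 ± 0.53 had adjusted p of 0.72 and 0.29 in edgeR. Without that library they were -0.46 and -0.72. Rcan1, a calcineurin inhibitor, was at 49.8, 59.0 and 54.7 CPM, at 60.9, 61.8 and 62.2 CPM and at 57.6, 58.9 and 63.7 CPM, with log2 fold changes of 0.18 ± 0.070 and 0.14 ± 0.070 (edgeR adjusted p = 0.702 and 0.44).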

How the data were processed

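The 9 libraries were made from polyA RNA, starting with 1.5 µg of total RNA and without strand, per the labels' protocols. The authors deposited whole-number read counts per gene, raw per the file headers. Their deposited table also holds a mean normalized signal, log2 fold changes with standard errors, a test score, and raw and adjusted p-values of a likelihood ratio test, per the file headers. Build mm9 and the tools HTSeq 0.6.1, TopHat 1.4.1, DESeq2 1.4.5, SAMtools 0.1.19 and R 3.1.1 are named in the submitters' processing notes, without settings.

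Counts were analysed with edgeR 4.0.16 (filterByExpr, TMM, robust quasi-likelihood F test on all 9 libraries, two-sided) in R 4.3.3. P-values were adjusted by Benjamini-Hochberg over the 16438 genes tested, with a threshold of 0.05. An SE is the log2 fold change divided by the square root of F, and intervals are 95% with the t quantile. Alternatives were DESeq2 1.42.0 and limma 3.58.1 voom, other scalings, no filter, no robust estimation, a replicate block, only the compared groups, and leaving out each library. Every pair of libraries in a group differed by more than counting noise (chi-square per degree of freedom 8.32 to 22.1). All columns of counts matched a label. Exon lengths come from another build than the counts, include rarely used exons, and are approximate.

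The members and the lists were chosen with earlier results of these data known. Values per library are given for genes past the threshold, the 12 members of lowest unadjusted p, the highest member of each subfamily per length, and, of the other pathway genes, those past the threshold or among the 3 of lowest unadjusted p. Pcp4 and Pou3f1 were not matched, and Slc8a3 and Kcnj13 did not pass the filter.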

Additional observations from a re-analysis of the deposited data

How the results depend on the processing

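Over 17 alternative settings, 9 of which leave out a library, the median log2 fold change of the 37 genes stayed negative in all 4 comparisons. Without control library 2 it moved from -0.04 to -0.01 with hairpin A and from -0.09 to -0.05 with hairpin B, where the SD of this median between control libraries was 0.0725. The number of genes called was small and moved in 18 of 67 recounts. The share of all genes called is in brackets. With hairpin A it was 1 by DESeq2 (0.201%) and 1 with only the compared groups (0.111%). With hairpin B it was 5 by DESeq2 (2.19%), 0 with the replicate block (0.9%) and 0 with only the compared groups (0.258%). For the mean of both it was 1 without a filter (0.29%), 3 by DESeq2 (1.33%) and 1 with the replicate block (0.189%), and between the hairpins it was 1 by DESeq2 (0.691%). Leaving out each library gave 0 to 1 in each comparison (0% to 1.31%). The cause was not tested. Over all genes DESeq2 called 41, 380, 225 and 120 in the 4 comparisons, against 4, 167, 16 and 0 in edgeR. Whether equal replicate numbers pair the libraries cannot be settled by their correlations. Same-numbered libraries correlated at -0.132 to 0.317 in their deviations from the group means, over 0.1 in 1 of 9 pairs. Those with other numbers correlated at -0.215 to 0.179, over 0.1 in 3 of 18 pairs. Of the libraries, 3 of 9 correlated best with their own number. With the block, Nos1 passed for the mean of both (adjusted p = 0.0441, of 0.000566 to 0.392 over the alternatives), and Atp2b3 (0.0618, of 0.000222 to 0.119) and Hpcal1 (0.0643) did not pass with hairpin B.

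Signs turned only in comparisons that did not pass the threshold. With library size alone, Camk2a between the hairpins was 0.0167 and Itpka with hairpin B 0.0102. For Itpr1 and the mean of both, limma-voom gave -0.00154 and the replicate block -0.000203. Leaving out each library gave these lowest and highest values. With hairpin A they were -0.049 and 0.023 for Camk2g, -0.131 and 0.205 for Hpca, -0.0193 and 0.224 for Nrgn, and -0.107 and 0.00552 for Ppp3r1. With hairpin B they were -0.0705 and 0.00184 for Camkk1, -0.0742 and 0.264 for Hpca, -0.134 and 0.108 for Itpka, and -0.00702 and 0.238 for Nrgn. For the mean of both they were -0.0643 and 0.0957 for Atp2b1, -0.103 and 0.235 for Hpca, -0.00517 and 0.116 for Itpka, -0.0438 and 0.0279 for Itpr1, and -0.0132 and 0.231 for Nrgn. Between the hairpins they were -0.134 and 0.0297 for Adcy1, -0.0474 and 0.0272 for Camk2a, -0.0235 and 0.12 for Hpca, -0.0519 and 0.0505 for Hpcal1, -0.0621 and 0.0114 for Hpcal4, -0.0449 and 0.181 for Nos1, -0.0437 and 0.0743 for Nrgn, -0.0201 and 0.118 for Pde1b, -0.0971 and 0.0152 for Ppp3r1, and -0.00388 and 0.172 for Ryr2.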
